A study of Mus musculus with 8 samples.

Results

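Keratins are the intermediate filament proteins of epithelial cells. Each filament is built from heterodimers of an acidic type I keratin and a basic type II keratin, so the genes are expressed in pairs: Krt5 with Krt14 in the basal layer of the epidermis, Krt1 with Krt10 in the layers above it, Krt6a and Krt6b with Krt16 and Krt17 in activated keratinocytes (KCs) and in parts of the hair follicle, and a further set in the inner root sheath and the hair shaft. The type I genes lie in a cluster on mouse chromosome 11 and the type II genes, together with the type I gene Krt18, on chromosome 15, by the RefSeq gene table. Krt6a, Krt6b and Krt16 are low in resting epidermis between the follicles and are known for their rise after wounding, hair plucking or barrier damage.

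The keratin genes are all probe sets of the deposited table whose gene symbol starts with Krt and a number, with the keratin-associated proteins (Krtap) left out. There are 49 of them among 22690 probe sets, of which 47 carry 1 gene name and represent 38 keratin genes out of 13201 genes, and 2 carry several names. The choice was made by name and not by any measured value. The RNA came from sheets of epidermis that dispase had separated from the dermis, from skin excised 3 days after depilation, a treatment that starts hair regrowth and activates KCs and that all mice received. The 8 Affymetrix arrays were from 2 wild type mice (WT, C57bl/6), 3 Tcl1-/- mice, which lack the mouse Tcl1 gene, and 3 K14-TCL1 mice, which carry human TCL1A under the keratin 14 promoter, active in basal KCs, on the Tcl1-/- background. The transgene promoter is therefore that of a keratin measured here, and K14-TCL1 differs from WT by both the deletion and the transgene. The methods state 3 chips per genotype, each from its own animal, but only 2 WT arrays were analysed here. The study describes the mice as adult, with no age in weeks. It names a strain for WT only, so a strain difference of the mutants from WT cannot be told apart from the deletion.

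The values are RMA intensities, a brightness per probe set after background correction, quantile normalization and a summary over its probes, on a linear scale that ran from 4.92 to 20952. Keratins spread over most of this range. On every array, the probe sets of Krt10, Krt77, Krt14, Krt1 and Krt5 ranked between 4 and 37 among all 22690, where differences can be compressed, and 12 of the 38 keratin genes stayed under a log2 mean of 5 in all 3 genotypes and were not tested. The other 26 were tested within a fit over 9731 genes (limma, all 8 arrays), with p-values adjusted over all of them by Benjamini-Hochberg and 0.05 as the threshold of a call. Log2 differences are given ± SE. Correlations between arrays were 0.998 to 0.999 within a genotype and 0.995 to 0.996 between genotypes, and no array stood apart. The probe set of Tcl1, the deleted gene, was near background on all 8 arrays (29.8 to 35.8) and checks no label, since whether it lies in the deleted part was not tested. The summed intensity of 4 KC markers that are not keratins (Trp63, Perp, Sfn and Dsp) was 3.056e+04 and 3.065e+04 in WT, 2.81e+04 to 2.88e+04 in Tcl1-/- and 2.75e+04 to 2.76e+04 in K14-TCL1. Most dermal markers were under the filter: Col1a1, Col3a1, Lum, Pdgfra and Dpt of fibroblasts, Pecam1, Cdh5 and Emcn of endothelium and Acta1, Myh4, Myl1 and Tnnt3 of muscle.

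Most activation keratins moved in opposite directions in the mutants. Krt6a, Krt6b and Krt16 were below WT in Tcl1-/- and above it in K14-TCL1, and they were the keratins with the largest differences between Tcl1-/- and K14-TCL1. In all, 12 of the 26 tested keratins were called between Tcl1-/- and WT (6 higher and 6 lower), where 26.6% of all tested genes were called, 14.4% higher and 12.2% lower. Between K14-TCL1 and WT 11 keratins were called (7 higher and 4 lower), with a background of 21.5%, 11.7% higher and 9.84% lower. Between Tcl1-/- and K14-TCL1 10 were called (6 higher and 4 lower in Tcl1-/-), with a background of 26.6%, 13.9% higher and 12.7% lower. Both comparisons against WT share the same 2 WT arrays. Without either WT array, which leaves a single one, fewer keratins were called in both comparisons. The share of all tested genes called was then smaller as well.

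Keratins both called and different by at least 0.32 on the log2 scale numbered 7 in Tcl1-/- against WT, 5 in K14-TCL1 against WT and 5 between the mutants, and 9.36%, 6.65% and 5.31% of all tested genes met the same rule. The median log2 difference of the 26 keratins was -0.004, 0.001 and -0.041 in the 3 comparisons, and that of all tested genes was 0.008, 0.010 and 0.000. The median size of the difference, whatever its sign, was 0.110, 0.134 and 0.118 for the keratins and 0.097, 0.092 and 0.088 for all tested genes. Over the 3 comparisons limma called 15 keratins at least once, 7 in all 3 and 11 in none. Of those 11, 3 (Krt1, Krt14 and Krt31) had an unadjusted p under 0.05 in a comparison. The same pooled counts were not made for all tested genes, and the comparisons share genotypes, so they are not independent. These pooled counts therefore cannot show if keratins were called more often than other genes.

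**Figure D1:**
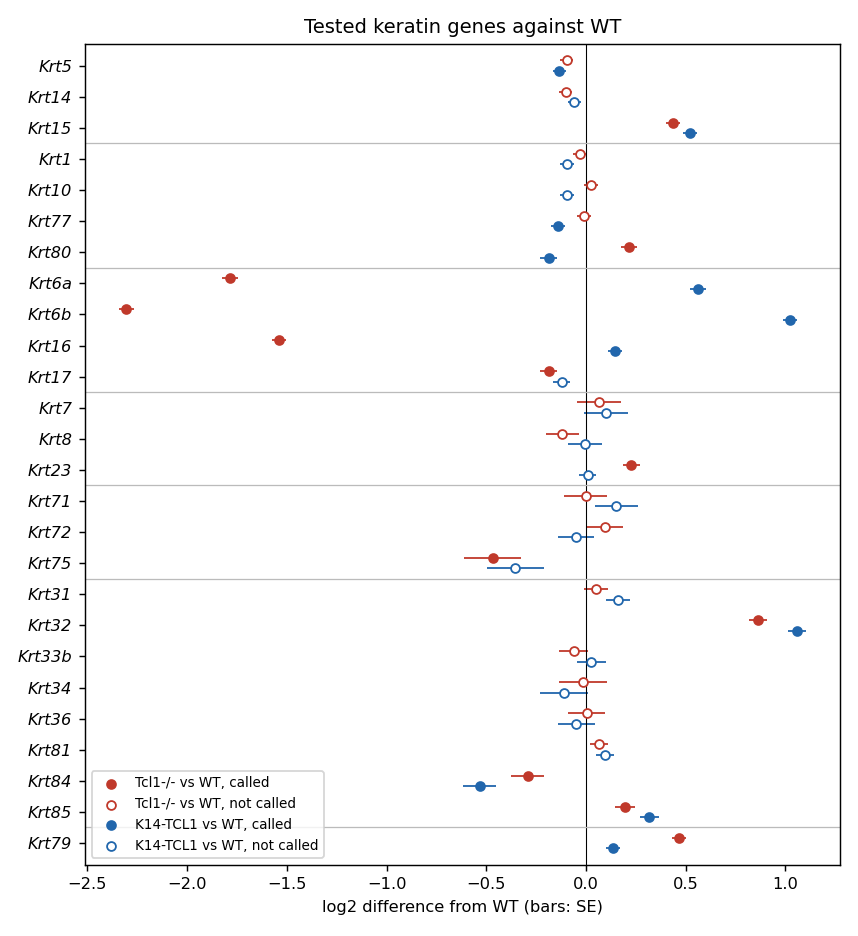
Log2 difference from WT (x axis, bars: SE) of the 26 tested keratin genes (y axis, grouped by class), with Tcl1-/- in red and K14-TCL1 in blue and called genes as filled circles. Krt6a, Krt6b and Krt16 lie on opposite sides of 0 in the mutants, whereas Krt15 and Krt32 lie to the right of 0 in both.

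Krt6b, a type II keratin of activated KCs and of the follicle, had the largest difference of any keratin. Its intensity was 1085, 1075 and 1058 in Tcl1-/-, 10838, 10839 and 10635 in K14-TCL1 and 5400 and 5196 in WT. The genotypes did not overlap, and the 8 arrays fell at 3 separate levels. Tcl1-/- was at 20.2% of WT (-2.30 ± 0.036, adjusted p = 9.5e-09, limma), and K14-TCL1 was 2.03-fold above WT (1.02 ± 0.036, adjusted p = 1.2e-06). K14-TCL1 exceeded Tcl1-/- 10.04-fold (-3.33 ± 0.032 for Tcl1-/- minus K14-TCL1, adjusted p = 3.1e-10). In bulk tissue, fewer cells that express a gene and less RNA per cell cannot be told apart, here or in any result below. For this keratin with the largest change, the PCR primers that the study lists under Krt6b are shown 5′ to 3′. Whether they also match Krt6a was not tested, and the PCR was not analysed here.
Krt6b forward primer: ttcatcgacaaggtccggtt
Krt6b reverse primer: cggaggttgctgatgtactgct

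Krt6a, its close paralog, was read by 3 probe sets. The brightest gave 1500, 1567 and 1550 in Tcl1-/-, 8034, 7608 and 7825 in K14-TCL1 and 5315 and 5280 in WT. Tcl1-/- was at 29.0% of WT (-1.78 ± 0.0395, adjusted p = 4.2e-08) and K14-TCL1 1.48-fold above it (0.56 ± 0.0395, adjusted p = 4.8e-05), with no overlap of the 3 groups. The other probe sets put the rise in K14-TCL1 higher: 1422783_a_at gave 0.89 ± 0.037 and 1427700_x_at 0.85 ± 0.040, against -1.92 ± 0.037 and -1.67 ± 0.040 in Tcl1-/-, in a fit of all probe sets. Krt6a and Krt6b are near-identical in sequence. Whether a probe set of one also binds the RNA of the other was not tested, so their values may not be separate measurements.

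Krt16, the type I partner of Krt6a and Krt6b in activated KCs, was at 1734, 1761 and 1803 in Tcl1-/-, 5699, 5596 and 5705 in K14-TCL1 and 5104 and 5146 in WT. The Tcl1-/- arrays lay far below all others. Against WT the decrease in Tcl1-/- was large (34.5% of WT, -1.54 ± 0.035, adjusted p = 4.8e-08), and the rise in K14-TCL1 was small (1.11-fold, 0.14 ± 0.035, adjusted p = 0.021). That rise was no longer called without either WT array (adjusted p = 0.119 and 0.093), without K14-TCL1 replicate 1 (0.059) or without replicate 3 (0.054). Between the mutants, Krt16 was at 31.2% in Tcl1-/- (-1.68 ± 0.0315, adjusted p = 1.04e-08).

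Krt17, a type I keratin of activated KCs that is also made in the outer root sheath and in young follicles, moved least of the activation keratins in Tcl1-/-. It was at 4480, 4160 and 4245 in Tcl1-/-, 4561, 4420 and 4501 in K14-TCL1 and 4923 and 4858 in WT. The WT arrays were the highest and the mutants overlapped. Tcl1-/- was 1.14-fold below WT (-0.19 ± 0.042, adjusted p = 0.012), a call lost without WT replicate 1 (adjusted p = 0.080) or WT replicate 2 (0.056). K14-TCL1 was not called (-0.12 ± 0.042, 95% interval -0.22 to -0.03, adjusted p = 0.074), nor was the difference between the mutants (-0.07 ± 0.037). A dimmer probe set of Krt17, 1420193_at, ran from 67.1 to 74.2 in Tcl1-/-, from 72.6 to 78.6 in K14-TCL1 and at 86.6 and 96.2 in WT. It was called lower in both mutants (-0.35 ± 0.066 and -0.26 ± 0.066).

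**Figure D2:**
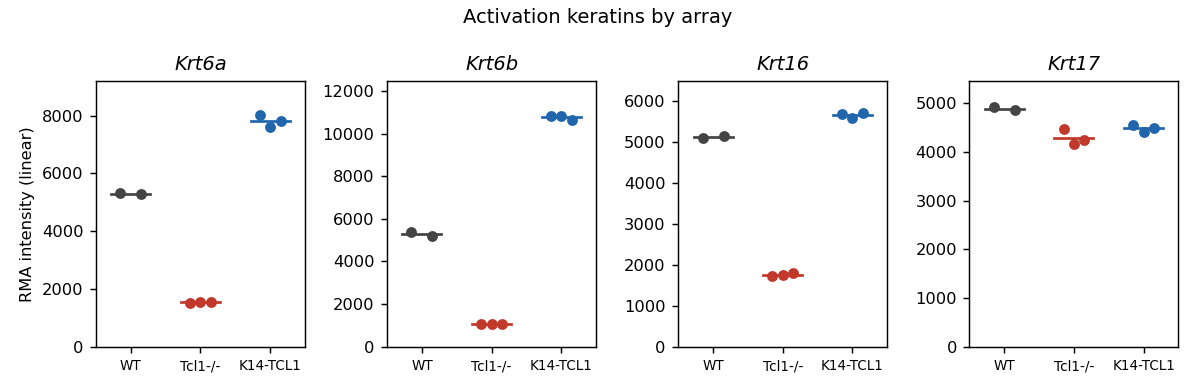
RMA intensity (linear, y axes from 0) of the 4 activation keratins on each array (dots), by genotype, with the mean as a line. Krt6a and Krt6b form 3 separate levels, Krt16 in K14-TCL1 lies close to WT, and Krt17 lies between 4160 and 4923 on all 8 arrays.

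Because filaments need both types, the type II to type I ratio was followed within each array, as the log2 ratio minus its WT mean. Krt6b over Krt16 fell to between -0.82 and -0.73 in Tcl1-/- and rose to between 0.85 and 0.91 in K14-TCL1, with the WT arrays at -0.03 and 0.03. Krt6a over Krt16 ran from -0.27 to -0.22 in Tcl1-/- and from 0.40 to 0.45 in K14-TCL1. By the brightest probe sets, the log2 change in intensity of Krt6a and Krt6b thus exceeded that of Krt16 in both mutants. It was downward in Tcl1-/- and upward in K14-TCL1. Probe sets of Krt6a alone differed, from 0.56 to 0.89 in K14-TCL1 and from -1.92 to -1.67 in Tcl1-/-. Whether Krt6a and Krt6b RNA changed more than Krt16 RNA was not tested. With Krt17 as the partner the ratios were wider: Krt6b over Krt17 was -2.16 to -2.07 in Tcl1-/- and 1.13 to 1.18 in K14-TCL1, and Krt6a over Krt17 was -1.69 to -1.52 and 0.67 to 0.70. The pairs of the basal and spinous layers, each read by the brightest probe set of the gene, stayed within 0.1 of WT. Krt5 over Krt14 was at 0.00 to 0.01 in Tcl1-/- and -0.09 to -0.06 in K14-TCL1, and Krt1 over Krt10 at -0.07 to -0.045 and -0.01 to 0.01. With the second Krt14 probe set, 1460347_at, Krt5 over Krt14 was at 0.047 to 0.060 in Tcl1-/- and -0.055 to -0.030 in K14-TCL1. The WT arrays were then at -0.001 and 0.001, so Tcl1-/- lay above them. With the dim Krt14 probe set 1455573_at instead, Krt5 over Krt14 was at -0.07 to 0.10 in Tcl1-/- and 0.57 to 0.80 in K14-TCL1. For each ratio of an activation pair the groups did not overlap in any comparison. By the brightest probe sets, the smaller shifts of Krt5 over Krt14 in K14-TCL1 and of Krt1 over Krt10 in Tcl1-/- were also free of overlap with both other genotypes. In all these cases the two-sided exact permutation test gave p = 0.1, the smallest that 3 against 2 or 3 against 3 arrays allow, so no such test could pass 0.05. These ratios compare changes in intensity, not amounts of RNA, since levels of different probe sets are not on 1 scale.

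**Figure D3:**
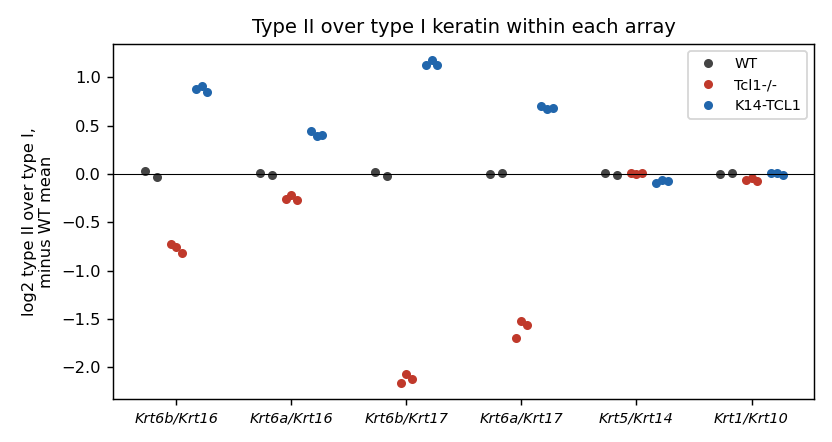
Log2 ratio of a type II to a type I keratin on each array, minus its mean in the 2 WT arrays (y axis), for 6 pairs (x axis). Activation pairs lie below 0 in Tcl1-/- and above 0 in K14-TCL1, while Krt5/Krt14 and Krt1/Krt10, from the brightest probe sets, stay within 0.1 of 0.

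In the basal layer, Krt15 was higher in both mutants, while its neighbours Krt5 and Krt14 moved little. Krt15, a type I keratin of basal cells and a marker of the follicle bulge, was at 8234, 8225 and 8171 in Tcl1-/-, 8801, 8776 and 8572 in K14-TCL1 and 6029 and 6111 in WT. All 6 mutant arrays exceeded both WT arrays. The increase was 1.35-fold in Tcl1-/- (0.44 ± 0.034, adjusted p = 5.2e-05) and 1.44-fold in K14-TCL1 (0.52 ± 0.034, adjusted p = 3.2e-05). The mutants were not called different (-0.09 ± 0.030, 95% interval -0.15 to -0.02, adjusted p = 0.067). Other bulge and germ markers changed beside it in both directions. In Tcl1-/- and K14-TCL1, Lhx2 (0.66 and 0.65) and Sox9 (0.55 and 0.36), transcription factors of follicle stem cells, were called higher, and Postn, a matrix protein, was called lower (-1.05 and -0.94). The summed intensity of the 7 markers was 2855 to 2978, 2991 to 3168 and, in WT, 5462 to 5522, with Cd34 under the filter and Lgr5, Nfatc1 and Tcf7l1 not called. A sum is weighted to its brightest members, and Postn, at 0.48 and 0.52 of WT, was the only tested member called lower. The lower sum thus does not describe the list as a whole. The part of these markers in the Krt15 result was not tested.

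Krt5, the type II keratin of basal KCs, was at 15016, 14949 and 15092 in Tcl1-/-, 14643, 14632 and 14614 in K14-TCL1 and 16143 and 15972 in WT. The WT arrays were highest, but the gap was small. Tcl1-/- was not called (-0.10 ± 0.032, 95% interval -0.17 to -0.02, adjusted p = 0.059), whereas K14-TCL1 was called lower (-0.13 ± 0.032, adjusted p = 0.021), with adjusted p between 0.053 and 0.12 without either WT array or K14-TCL1 replicate 1. With each array centred on its median, Krt5 was called lower in Tcl1-/- as well (-0.12, adjusted p = 0.0365).

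Krt14, the type I partner of Krt5, was measured by 3 probe sets that did not give the same calls. The brightest, 1423935_x_at, was at 15791, 15838 and 15853 in Tcl1-/-, 16504, 16130 and 16318 in K14-TCL1 and 16995 on both WT arrays, and no difference was called (-0.10 ± 0.033, adjusted p = 0.0506, in Tcl1-/- and -0.06 ± 0.033, adjusted p = 0.240, in K14-TCL1). The second, 1460347_at, was at 14735, 14586 and 14677, then 15421, 15216 and 15118, then 16373 and 16176 in the same order, and it was called lower in Tcl1-/- (-0.15 ± 0.035) and not in K14-TCL1 (-0.09 ± 0.035). The dimmest, 1455573_at, stood apart from both. It was at 288, 281 and 318 in Tcl1-/-, 169, 198 and 181 in K14-TCL1 and 322 and 325 in WT. Here the 3 K14-TCL1 arrays were the lowest, at 56.4% of WT, and were called lower (-0.83 ± 0.076, adjusted p = 2.9e-04), while Tcl1-/- was not called (-0.13 ± 0.076). Which part of the Krt14 RNA this probe set reads was not tested. A further probe set that carries the names of both Krt14 and Krt17 lay between 49.5 and 54.3 on all arrays and was called lower in Tcl1-/- (-0.12 ± 0.036, adjusted p = 0.047) and not in K14-TCL1 (-0.04 ± 0.036).

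**Figure D4:**
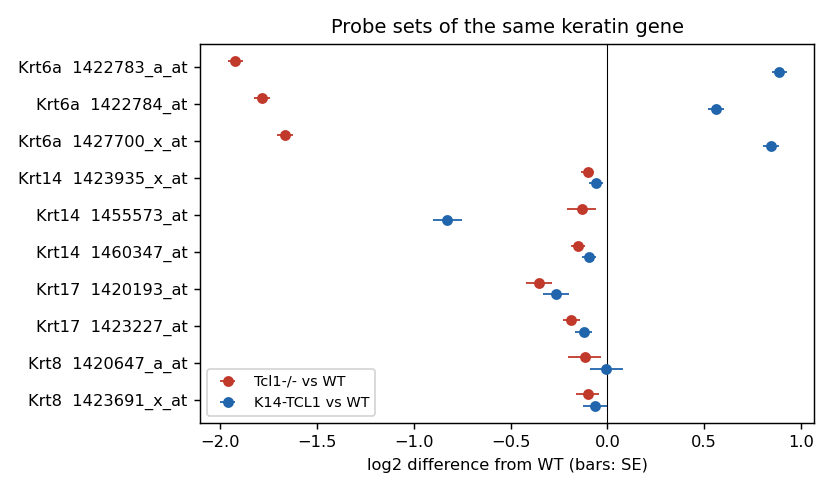
Log2 difference from WT (x axis, bars: SE) of each tested probe set of keratin genes with several of them (y axis), with Tcl1-/- in red and K14-TCL1 in blue. The 3 Krt6a probe sets move the same way in each mutant, whereas 1455573_at of Krt14 lies at -0.83 in K14-TCL1, apart from the other Krt14 probe sets.

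Of the tested keratins of the differentiating layers, Krt80 was called in both mutants against WT, Krt77 in K14-TCL1 alone, and Krt1 and Krt10 in neither. Krt10, the type I keratin of the spinous layer, was at 18795, 18635 and 18882 in Tcl1-/-, 16902, 17367 and 17425 in K14-TCL1 and 18326 and 18526 in WT. K14-TCL1 was lowest, and Krt10 was called higher in Tcl1-/- than in K14-TCL1 (0.12 ± 0.031, adjusted p = 0.020), with adjusted p between 0.061 and 0.067 without Tcl1-/- replicate 1 or 3 or K14-TCL1 replicate 1. Neither mutant was called against WT (0.03 ± 0.034, 95% interval -0.05 to 0.11, and -0.10 ± 0.034, -0.17 to -0.02). Krt1, its type II partner, was at 16150, 16179 and 16117 in Tcl1-/-, 15276, 15631 and 15480 in K14-TCL1 and 16364 and 16653 in WT, and no comparison called it (-0.03 ± 0.033, -0.09 ± 0.033 and 0.06 ± 0.030).

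Krt77, a type II keratin of the suprabasal layers, was also lowest in K14-TCL1. It ran from 18242 to 18750 in Tcl1-/-, from 16873 to 16990 in K14-TCL1 and from 18447 to 18874 in WT. It was called lower in K14-TCL1 than in WT (-0.14 ± 0.034, adjusted p = 0.022; 0.078 and 0.135 without WT replicate 1 and 2, 0.059 without K14-TCL1 replicate 1) and higher in Tcl1-/- than in K14-TCL1 (0.13 ± 0.031, adjusted p = 0.015; 0.0506 and 0.052 without Tcl1-/- replicate 2 and 3). Krt80, a type II keratin of late differentiation, was the only suprabasal keratin that was called on opposite sides of WT. Its intensity was 3917, 3881 and 3719 in Tcl1-/-, 2917, 2955 and 2828 in K14-TCL1 and 3262 and 3343 in WT. The groups did not overlap. Krt80 rose 1.16-fold in Tcl1-/- (0.22 ± 0.040, adjusted p = 0.0053) and was lower in K14-TCL1 (-0.19 ± 0.040, adjusted p = 0.013; 0.057 and 0.091 without WT replicate 1 and 2), which put the mutants 1.32-fold apart (0.40 ± 0.036, adjusted p = 1.9e-04). This order is the reverse of that of Krt6a, Krt6b and Krt16.

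Krt2, a type II keratin of the upper spinous and granular layers that is abundant in tail and sole skin, was near background. It was at 33.0, 25.2 and 34.1 in Tcl1-/-, 20.6, 13.9 and 19.4 in K14-TCL1 and 15.6 and 14.7 in WT, and it just missed the filter with a Tcl1-/- log2 mean of 4.93. In a fit with no filter it was called higher in Tcl1-/- than in WT (1.01 ± 0.18, adjusted p = 0.0082) and than in K14-TCL1 (0.79 ± 0.16, adjusted p = 0.016). Intensities of this size hold mostly background, so the fold is a poor measure of the RNA.

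Among the keratins of follicle openings and simple epithelia, Krt79 and Krt23 were highest in Tcl1-/-. Krt79, a type II keratin known in mouse from the hair canal and the duct of the sebaceous gland, was at 7265, 7270 and 7041 in Tcl1-/-, 5639, 5811 and 5681 in K14-TCL1 and 5241 and 5162 in WT. Every array of Tcl1-/- exceeded all others. The increase was 1.38-fold against WT (0.47 ± 0.036, adjusted p = 5.0e-05) and 1.26-fold against K14-TCL1 (0.33 ± 0.032, adjusted p = 2.9e-04). K14-TCL1 was called above WT by a small margin (0.13 ± 0.036, adjusted p = 0.031), a call lost without any 1 of the WT or K14-TCL1 arrays (adjusted p from 0.052 to 0.155), without Tcl1-/- replicate 1 (0.0506) and with each array centred on its median (0.064). Sebocyte markers moved with it. Of 5 on the table, 4 were tested and all 4 were called higher in Tcl1-/- than in WT (14.4% of all tested genes were), with Scd3 at 0.77 ± 0.057, Mgst1 at 0.47 ± 0.038, Elovl3 at 0.31 ± 0.048 and Scd1 at 0.29 ± 0.044, which encode lipid-making enzymes and, for Mgst1, a glutathione transferase. In K14-TCL1 Mgst1 (0.34) and Scd3 (0.31) were called higher, and Mc5r, a receptor of sebocytes, was under the filter in all genotypes. The summed intensity of the 5 was 7492 to 7559 in Tcl1-/-, 6190 to 6558 in K14-TCL1 and 5937 to 5960 in WT, and its part in the Krt79 result was not tested.

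Krt23, a type I keratin of simple and glandular epithelia, was at 3155, 3016 and 3083 in Tcl1-/-, 2726, 2556 and 2670 in K14-TCL1 and 2614 and 2655 in WT. Only Tcl1-/- stood above, by 1.17-fold against WT (0.23 ± 0.041, adjusted p = 0.0048) and 1.16-fold against K14-TCL1 (0.22 ± 0.037, adjusted p = 0.0040). The K14-TCL1 and WT arrays overlapped, and their difference was 0.01 ± 0.041 (95% interval -0.09 to 0.10). The partners Krt7 and Krt8 of simple epithelia were dim and not called, at 73.4 to 95.1 and 38.0 to 49.5 over all arrays, with intervals of -0.19 to 0.32 and -0.31 to 0.08 for Tcl1-/- against WT. Krt18, Krt19 and Krt20, of simple epithelia and, for Krt20, of Merkel cells, stayed under the filter at 8.93 to 28.7, and so did Atoh1, Sox2, Isl1, Rab3c and Snap25 of the Merkel cell list. Chga, a granule protein and the tested member of that list, was called lower in K14-TCL1 than in WT (-0.43 ± 0.078, adjusted p = 0.0065) and not in Tcl1-/- (-0.09 ± 0.078).

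**Figure D5:**
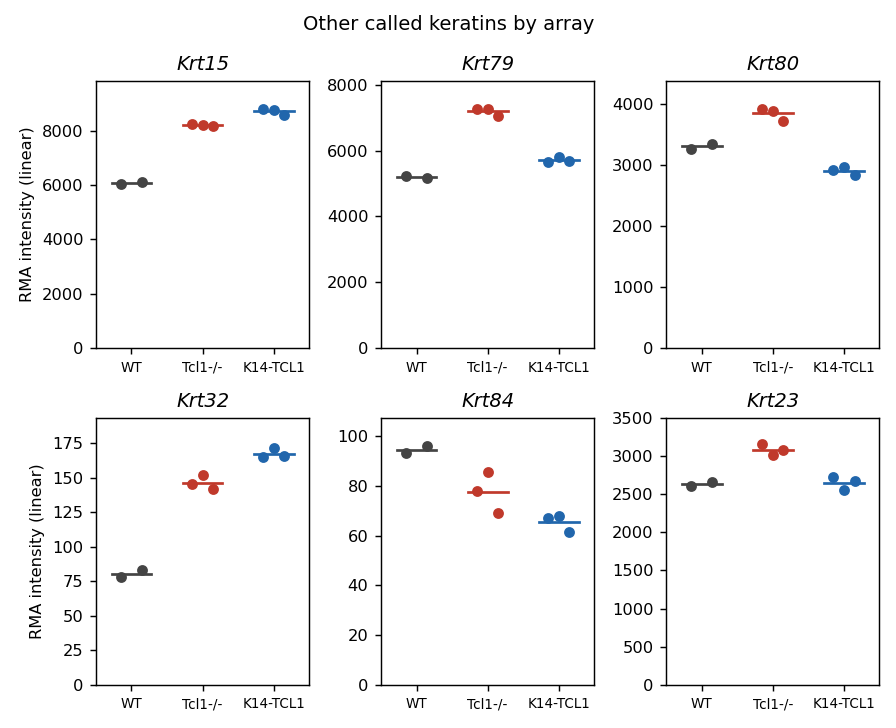
RMA intensity (linear, y axes from 0) of 6 other called keratins on each array (dots), by genotype, with the mean as a line. Krt15 and Krt32 are high in both mutants, Krt79 and Krt23 are highest in Tcl1-/-, Krt80 is highest in Tcl1-/- and lowest in K14-TCL1, and Krt84 is highest in WT.

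Hair shaft keratins form the cortex and cuticle of the growing hair. At 3 days after depilation most of them were close to background. Of the 11 genes listed on the arrays, 8 were tested, and 3 of those were called in each comparison against WT, where 26.6% (Tcl1-/-) and 21.5% (K14-TCL1) of all tested genes were called. Krt32, a type I keratin of the hair cuticle, was at 145, 152 and 142 in Tcl1-/-, 165, 171 and 166 in K14-TCL1 and 77.9 and 83.3 in WT. Both mutants lay well above WT and did not overlap each other. Krt32 rose 1.82-fold in Tcl1-/- (0.86 ± 0.046, adjusted p = 7.2e-06) and 2.08-fold in K14-TCL1 (1.06 ± 0.046, adjusted p = 3.2e-06), and was lower in Tcl1-/- than in K14-TCL1 (-0.20 ± 0.041, adjusted p = 0.010).

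Krt85, a type II keratin of the hair matrix and cuticle, changed in the same direction by less. It was at 64.6, 62.8 and 64.0 in Tcl1-/-, 68.8, 72.8 and 66.6 in K14-TCL1 and 53.9 and 57.5 in WT. It was called higher in both mutants (0.20 ± 0.049, adjusted p = 0.019, and 0.32 ± 0.049, adjusted p = 0.0031), in Tcl1-/- not without Tcl1-/- replicate 1 (0.058) or WT replicate 1 (0.148). Krt84, a type II keratin of the hair family known from tongue and nail, moved the other way. It was at 77.8, 85.4 and 69.1 in Tcl1-/-, 66.9, 67.9 and 61.3 in K14-TCL1 and 93.2 and 95.9 in WT, so that WT was highest. K14-TCL1 was at 69.1% of WT (-0.53 ± 0.084, adjusted p = 0.0035) and Tcl1-/- at 81.6% (-0.29 ± 0.084, adjusted p = 0.034). The call in Tcl1-/- was lost without either WT array (adjusted p = 0.111 and 0.151) and without Tcl1-/- replicate 1 (0.072) or 3 (0.061), and that between the mutants (0.24 ± 0.075, adjusted p = 0.046) without any 1 of 7 arrays.

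Krt31, Krt33b, Krt34 and Krt36, type I keratins of the hair family made mostly in the cortex, and Krt81, a type II keratin of the cortex, were not called in any comparison. Their differences from WT ran from -0.06 for Krt33b to 0.07 for Krt81 in Tcl1-/- and from -0.11 for Krt34 to 0.16 for Krt31 in K14-TCL1, with the widest interval at -0.39 to 0.17 for Krt34. Krt33a, Krt35 and Krt86 were under the filter, at 11.3 to 25.5. A probe set that carries the names of Krt2-ps1 and Krt82 lay at 9.37 to 11.9. The Krtap genes, whose proteins crosslink keratin in the hair shaft, had 25 members on the table, of which 4 were tested. Krtap12-1 was called higher in Tcl1-/- than in WT (0.24 ± 0.050) and than in K14-TCL1 (0.22 ± 0.045), and limma called 0 of 4 in K14-TCL1 against WT, where 1, Krtap3-1, had an unadjusted p under 0.05 (0.22 ± 0.089, adjusted p = 0.114). Tchh, Padi3 and S100a3, which mark the inner root sheath and the forming hair, were under the filter. The summed intensity of the 8 matrix and inner root sheath markers was 1979 to 2099 in Tcl1-/-, 1735 to 2033 in K14-TCL1 and 2042 to 2116 in WT. Of the 5 tested, Padi4 and Dsc2 were called higher in K14-TCL1 than in WT (0.55 and 0.43), where 11.7% of all tested genes were. In Tcl1-/- against WT Dsc2 was called lower (-0.36, adjusted p = 0.043, limma), as were 12.2% of all tested genes. Between the mutants, Dsc2 was called lower in Tcl1-/- (-0.79) and Msx2 higher (0.26), as were 12.7% and 13.9% of all tested genes. The part of these markers in the Krt32 result was not tested.

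The sequence before the start of these genes gives context to Krt32. The RefSeq promoter table (GRCm38.p6) held 24 of the 38 keratin genes. Krt6a, Krt6b, Krt15, Krt16, Krt17, Krt80 and Krt85 were not among them. The 250 bases before the start were searched for CTTTGAAG, the site that the Wnt factor LEF1 is known to bind in hair keratin promoters (both strands), TATAAA, the TATA box (gene strand), and TGANTCA, the AP-1 site (both strands). The motifs do not overlap, and they were chosen with the Krt32 window in view. CTTTGAAG occurred in 4 of 24 keratin windows, all of them type I hair shaft genes (4 of 6 hair shaft genes matched), and in 1.42% of all 32851 windows. TATAAA occurred in 10 of 24, against 7.59%, and TGANTCA in 1 of 24 (Krt13), against 6.75%. The windows of the 4 genes with the LEF1 letters are shown with those of Krt84, which fell in both mutants, and of Krt79, 5′ to 3′ on the gene strand with the matches in capitals. They lie at chr11:100088270-100088519 (Krt32), chr11:100050552-100050801 (Krt31), chr11:100029869-100030118 (Krt33b), chr11:100041555-100041804 (Krt34), chr15:101532821-101533070 (Krt84) and chr15:101940325-101940574 (Krt79), all on the minus strand.
Krt32: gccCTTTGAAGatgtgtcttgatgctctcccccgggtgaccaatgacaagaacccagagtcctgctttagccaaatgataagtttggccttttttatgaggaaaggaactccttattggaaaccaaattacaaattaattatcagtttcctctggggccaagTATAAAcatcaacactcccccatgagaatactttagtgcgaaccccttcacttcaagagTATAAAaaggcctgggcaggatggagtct
Krt31: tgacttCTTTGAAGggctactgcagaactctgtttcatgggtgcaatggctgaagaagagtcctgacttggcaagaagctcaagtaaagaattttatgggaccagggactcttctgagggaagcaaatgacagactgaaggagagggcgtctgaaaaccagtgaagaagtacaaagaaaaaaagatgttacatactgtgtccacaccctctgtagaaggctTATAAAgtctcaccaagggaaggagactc
Krt33b: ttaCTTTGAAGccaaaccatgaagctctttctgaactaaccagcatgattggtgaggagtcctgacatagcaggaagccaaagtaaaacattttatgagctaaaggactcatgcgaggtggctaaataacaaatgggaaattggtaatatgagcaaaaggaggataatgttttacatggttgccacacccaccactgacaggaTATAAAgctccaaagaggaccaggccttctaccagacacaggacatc
Krt34: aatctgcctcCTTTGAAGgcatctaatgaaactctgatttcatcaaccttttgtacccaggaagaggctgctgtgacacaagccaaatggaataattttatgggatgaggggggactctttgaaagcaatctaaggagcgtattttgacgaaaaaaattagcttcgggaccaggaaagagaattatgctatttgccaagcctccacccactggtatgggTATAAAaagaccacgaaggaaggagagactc
Krt84: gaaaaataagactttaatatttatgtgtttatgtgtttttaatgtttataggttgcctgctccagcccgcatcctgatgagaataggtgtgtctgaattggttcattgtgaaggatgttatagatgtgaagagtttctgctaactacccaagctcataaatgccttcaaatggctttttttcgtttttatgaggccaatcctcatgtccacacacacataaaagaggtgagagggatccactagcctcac
Krt79: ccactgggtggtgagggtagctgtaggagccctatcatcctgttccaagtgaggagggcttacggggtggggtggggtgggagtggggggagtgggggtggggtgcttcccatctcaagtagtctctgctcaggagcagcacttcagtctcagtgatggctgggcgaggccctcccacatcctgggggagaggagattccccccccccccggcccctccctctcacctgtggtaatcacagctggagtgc

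CTTTGAAG starts 247 bases before the start in Krt32, 244 in Krt31, 247 in Krt33b and 240 in Krt34. Of these 4 genes Krt32 was called higher in both mutants and the other 3 were called in neither. Krt32 alone has TATAAA in 2 places, 88 and 29 bases before its start, and Krt31, Krt33b and Krt34 have it once, at 29, 47 and 31. The windows of Krt84 and Krt79 held none of the 3 motifs. A match is a description of these letters and no evidence of binding. Lef1 itself was under the filter on the arrays.

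Of 5 companion layer and inner root sheath keratins on the arrays, 3 were tested. Against WT 1 was called in Tcl1-/- and 0 in K14-TCL1, and 0 were called between the mutants. Of all tested genes 26.6%, 21.5% and 26.6% were called in these comparisons. Krt75, the type II keratin of the companion layer, was at 30.6, 31.4 and 38.4 in Tcl1-/-, 30.9, 43.6 and 34.7 in K14-TCL1 and 44.8 and 47.3 in WT. It was called lower in Tcl1-/- (-0.47 ± 0.14, adjusted p = 0.043), but not without Tcl1-/- replicate 1 or 2, K14-TCL1 replicate 3 or either WT array (adjusted p from 0.059 to 0.180). In K14-TCL1 it was not called (-0.35 ± 0.14, adjusted p = 0.118), with a call only without K14-TCL1 replicate 2 (-0.49, adjusted p = 0.022). Krt71 and Krt72 of the inner root sheath, at 48.3 to 67.6 and 53.3 to 68.2, were not called. Krt25 and Krt27, also of the inner root sheath, were under the filter. Krt27 was at 17.4, 19.1 and 16.8 in Tcl1-/-, 21.9, 19.4 and 18.6 in K14-TCL1 and 13.0 and 13.2 in WT, and without a filter it was called higher in both mutants (0.43 ± 0.080 and 0.60 ± 0.080, adjusted p = 0.0085 and 0.0026). Krt4, Krt12 and Krt13, keratins of oral, corneal and other mucosal epithelia, were also under the filter, at 9.41 to 31.9.

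Genes whose proteins anchor or organise keratin filaments were lower in K14-TCL1. Of 17 listed genes 12 were tested. Against WT, K14-TCL1 had 11 of them called lower and 1 called higher, with 9.84% of all tested genes called lower and 11.7% higher (median -0.210, with 0.010 for all tested genes). Eppk1, an epiplakin that binds keratin, had the largest decrease (-0.52 ± 0.036, adjusted p = 4.9e-05), followed by Fam83h, a keratin organiser (-0.42 ± 0.044), and Hrnr, a filaggrin relative of the cornified layer (-0.33 ± 0.041). Plec, the plectin linker, fell by 0.23, and the desmosomal genes Jup, Pkp1, Pkp3 and Dsp fell by 0.24, 0.19, 0.18 and 0.18. Dst, which ties Krt5 and Krt14 filaments to hemidesmosomes, was the exception (0.19 ± 0.037). In Tcl1-/- Dst (0.16) and Ppl (0.17) were called higher and Eppk1 (-0.26) and Fam83h (-0.17) lower, and 8 were not called (median -0.045). Of all tested genes, 14.4% were called higher and 12.2% lower in that comparison. Against K14-TCL1, limma called 10 of the 12 higher in Tcl1-/-, where 13.9% of all tested genes were. Dsp (0.10 ± 0.034) and Dst (-0.03 ± 0.033) were not called.

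Of 7 other intermediate filament genes tested, Vim was called higher in Tcl1-/- (0.51 ± 0.040, adjusted p = 5.7e-05) and not in K14-TCL1 (0.13 ± 0.040, adjusted p = 0.0505). Vim encodes vimentin, the filament of immune and mesenchymal cells, and of 6 Langerhans cell markers 5 were called higher in Tcl1-/- and 4 in K14-TCL1, where 14.4% and 11.7% of all tested genes were, and Mfge8 was called lower in K14-TCL1 (-0.29 ± 0.043). They had summed intensities of 1.01e+04 to 1.05e+04 in Tcl1-/-, 8582 to 8602 in K14-TCL1 and 7804 to 8132 in WT. Of 6 epidermal T cell markers 4 were called higher in Tcl1-/- and 6 in K14-TCL1, with sums of 1229 to 1249, 1357 to 1365 and, in WT, 1027 on both arrays. Their part in the Vim result was not tested. Lmna, the lamin of the nuclear envelope, was called lower in both mutants (-0.20 ± 0.035 and -0.33 ± 0.035). Of 19 tested regulators of keratin and hair shaft genes, 2 were called higher and 3 lower in Tcl1-/- and 14 not called. This share is close to the 26.6% of all tested genes called (14.4% higher and 12.2% lower). In K14-TCL1 0 were called higher, 5 lower and 14 not called, against 11.7% higher and 9.84% lower of all tested genes. Between the mutants 7 were called higher and 1 lower in Tcl1-/-, against 13.9% and 12.7% of all tested genes. Cebpa, a factor of early differentiation, rose in Tcl1-/- (0.27 ± 0.035), as did Foxn1, which hair shaft differentiation requires in mouse (0.31 ± 0.093, adjusted p = 0.039). Klf4, a barrier factor, Cebpb, and Grhl1 were lower in K14-TCL1 (-0.27 ± 0.039, -0.30 ± 0.066 and -0.28 ± 0.045). Grhl1 (-0.17 ± 0.045) and Ovol1 (-0.14 ± 0.034) were also called lower in Tcl1-/-. Hoxc13, a regulator of hair keratin genes, was not called (0.37 ± 0.16 in Tcl1-/- and 0.28 ± 0.16 in K14-TCL1).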

How the data were processed

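The authors hybridized RNA of epidermal sheets to Affymetrix mouse arrays, of which those of 2 WT, 3 Tcl1-/- and 3 K14-TCL1 mice were analysed here. The deposited intensity values are RMA summaries on the linear scale, per the submitters' processing notes. Its version and the genome build are not given in the sources used here. A further deposited table holds the same values. RMA intensities carry no read depth, so the number of arrays limits precision.

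All tests used log2 of the deposited intensities, with no pseudocount. Symbols came from the deposited table and were updated with RefSeq (GRCm38.p6), which changed Krt72-ps to Krt72. The probe set with the highest mean stood for a gene, and genes whose highest genotype mean was under 5 (log2) were left out. Genotype means were fitted with limma 3.58.1 in R 4.3.3 (5 residual and 3.32 prior degrees of freedom), adjusted over 9731 genes. The fit was tested on simulated data of the same 9731 genes. For Tcl1-/- against WT it called 31 of 50 genes changed by 0.32 (log2), 46 of 50 changed by 0.58 and all 50 changed by 1.00. Far fewer genes were changed in the simulation than the 26.6% called in the data, so recovery in the data may differ. Promoters, names and figures were handled in Python 3.11.15 (matplotlib 3.10.9). The p-values measure the spread between arrays of a genotype, and the labels do not say whether litters or hybridizations were shared.

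Every tested keratin is named. Values on every array are given for keratins called with a difference of at least 1.25-fold in a comparison, and for Krt1, Krt5, Krt10 and Krt14. They are also given for probe sets of 1 gene that differ in call, with further keratins added after their values were seen. Up to 4 members of each other list are named by smallest p, and a few more after their values were seen. The members and lists were chosen with earlier results of these data known. Alternatives were other filters, probe sets, centring, variance models, samples in the fit, the replicate number as a block, an unadjusted threshold, and each array left out in turn.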

Additional observations from a re-analysis of the deposited data

How the results depend on the processing

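Under all 17 alternatives run for single genes, the lower Krt6a, Krt6b and Krt16 in Tcl1-/-, the higher Krt6a and Krt6b in K14-TCL1, and the higher Krt15 and Krt32 in both mutants kept their call, and no called difference of a named keratin changed direction. Uncalled differences near 0 changed sign for Krt77 in Tcl1-/- against WT (-0.01, and 0.01 without WT replicate 2), for Krt23 in K14-TCL1 against WT (0.01, and -0.01 with each array centred on its median) and for Krt75 between the mutants (-0.11, and 0.02 without K14-TCL1 replicate 2). The 12 calls of Tcl1-/- against WT ranged from 9 to 13 without 1 mutant array, where 20.1% to 30% of all tested genes were called. The 11 calls of K14-TCL1 against WT were 7 when only those 2 genotypes entered the fit and 7 with the replicate number as a block. They were 6 at an unadjusted p under 0.001 and 8 to 12 without 1 mutant array. Of all tested genes 15.8%, 15.8%, 9.89% and 16.3% to 22.7% were called in these settings, against 21.5% in the main fit. Without either WT array, the keratin count and the share of all tested genes called were lower in both comparisons. The 10 calls of Tcl1-/- against K14-TCL1 were 6 at an unadjusted p under 0.001 and 8 to 10 with 1 array left out. The cause was not tested, except that fewer arrays leave fewer degrees of freedom. The replicate block gave 12 calls in Tcl1-/- against WT, where it called 21% of all tested genes, and 10 between the mutants. Same-numbered arrays did not deviate together (correlations from -0.061 to 0.057 over 7 pairs, 0 of them over 0.1). The 2 WT arrays deviate from their mean by opposite amounts, so the 7 pairs are not independent. A litter or hybridization that shifted only some genes could leave such correlations low, so they cannot exclude a shared batch. Differences of keratins near 20952, the highest intensity measured, and of those near background can be compressed, which was not tested.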
